A study of Homo sapiens with 6 samples.

Results

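The long-arm block of chromosome 18 comprises the ATAC-seq peak regions of U2OS cells from 20 to 75 Mb, without the 2 Mb from 69 to 71 Mb. ATAC-seq uses a transposase that cuts open DNA and leaves sequencing adapters there, and U2OS is an established human osteosarcoma cell line. Overlapping peaks of all 6 libraries were merged, and 3390 of the 248031 merged regions had their midpoint in the block (hg19). The block was chosen because earlier results of these libraries had shown a higher share of peaks and higher summit pileups there in cells without CRAMP1. Those values are therefore described here with no p-value, and calls from the fit over all regions are printed without being read as support. There were 3 libraries from cells with a CRAMP1 knockout (CRAMP1-KO) and 3 from wild-type (WT) U2OS cells. Both groups share the cell line, and the labels name no further allele, agent or time point. Each library started from 50000 cells, was tagmented for 30 min and was amplified in 7 PCR cycles. Neither the clonal origin of the CRAMP1-KO cells nor the source of the replicates is given in the labels, so spreads between replicates may be technical.

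Transposase cuts mostly where nucleosomes are spaced or displaced, at promoters and enhancers, and less often in compact chromatin. CRAMP1 is known as a regulator of genes for linker histone H1, a protein that binds DNA between nucleosomes and compacts it. The long arm of chromosome 18 is gene-poor by human standards. It carries the desmosomal and several type II cadherin genes, the clade B serpin genes, and SMAD2, SMAD4, SMAD7, BCL2 and DCC.

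The depth of the libraries is known only through the peak lists. They held 133756, 139242 and 157997 peaks in CRAMP1-KO replicates 1, 2 and 3 and 198875, 151646 and 132686 in WT replicates 1, 2 and 3. They give no read totals, and counting intervals are therefore left out. The pileup (fragments over a peak's summit) and the local background were solved from the authors' fold enrichment and −log10 p. The median pileup over the 92505 regions shared by all 6 libraries was 61, 62 and 96 fragments in CRAMP1-KO and 97, 87 and 53 in WT. Each library was divided by its own median, so that a relative pileup of 1 is the middle of that library. WT replicate 1 stood apart, with the most peaks and a median fold enrichment of 4.25, against 5.96 to 6.26 in the other 5 libraries. Across shared regions the log2 pileups of CRAMP1-KO pairs correlated at 0.97 to 0.98, those of WT pairs at 0.98, and those of mixed pairs at 0.94 to 0.95, and no library was a copy of another.

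The promoters in this paragraph span the contrast inside the block. MC4R (melanocortin receptor), SYT4 (a synaptotagmin) and CDH7 (a type II cadherin) had weak start regions with the largest pileup changes among the gene starts examined. DCC (a netrin receptor) stood in between. SMAD2 (a TGF-β signal transducer), ME2 (a mitochondrial malic enzyme) and VPS4B (an ATPase of membrane scission) had strong start regions with small changes. PTPRM (a receptor phosphatase) lies on the short arm and had a lower pileup in CRAMP1-KO. Each line gives the 250 bases before the RefSeq start in GRCh38.p14, 5′ to 3′ on the gene's strand. Capitals mark the GC box GGGCGG and the CCAAT box ATTGG on either strand.
MC4R: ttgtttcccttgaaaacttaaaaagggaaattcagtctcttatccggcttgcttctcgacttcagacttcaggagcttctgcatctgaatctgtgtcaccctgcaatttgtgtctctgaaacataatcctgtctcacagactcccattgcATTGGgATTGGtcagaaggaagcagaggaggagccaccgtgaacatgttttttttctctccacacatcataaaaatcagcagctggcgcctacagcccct
SYT4: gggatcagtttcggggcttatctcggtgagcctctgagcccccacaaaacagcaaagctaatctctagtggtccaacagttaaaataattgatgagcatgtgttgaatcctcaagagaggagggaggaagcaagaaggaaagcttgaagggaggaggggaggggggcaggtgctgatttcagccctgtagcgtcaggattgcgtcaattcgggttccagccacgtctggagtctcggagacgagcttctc
CDH7: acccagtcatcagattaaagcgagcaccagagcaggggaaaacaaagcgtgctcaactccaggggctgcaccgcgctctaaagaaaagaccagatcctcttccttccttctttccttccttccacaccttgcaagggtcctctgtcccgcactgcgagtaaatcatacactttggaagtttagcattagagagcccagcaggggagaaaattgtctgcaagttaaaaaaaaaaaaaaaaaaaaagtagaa
DCC: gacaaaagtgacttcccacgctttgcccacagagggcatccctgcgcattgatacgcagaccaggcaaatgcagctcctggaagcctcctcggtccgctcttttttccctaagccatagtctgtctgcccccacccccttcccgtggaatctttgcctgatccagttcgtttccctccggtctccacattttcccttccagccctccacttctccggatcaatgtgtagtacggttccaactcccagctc
SMAD2: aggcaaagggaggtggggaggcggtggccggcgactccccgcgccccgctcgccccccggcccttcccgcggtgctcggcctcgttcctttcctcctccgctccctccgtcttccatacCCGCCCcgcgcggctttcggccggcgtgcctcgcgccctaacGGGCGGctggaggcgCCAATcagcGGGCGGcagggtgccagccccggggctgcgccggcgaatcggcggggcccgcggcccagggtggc
ME2: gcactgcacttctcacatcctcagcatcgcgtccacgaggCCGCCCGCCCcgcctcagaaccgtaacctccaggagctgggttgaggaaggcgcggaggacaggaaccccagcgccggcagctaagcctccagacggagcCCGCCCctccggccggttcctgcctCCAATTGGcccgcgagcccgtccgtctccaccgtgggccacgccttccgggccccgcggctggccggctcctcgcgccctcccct
VPS4B: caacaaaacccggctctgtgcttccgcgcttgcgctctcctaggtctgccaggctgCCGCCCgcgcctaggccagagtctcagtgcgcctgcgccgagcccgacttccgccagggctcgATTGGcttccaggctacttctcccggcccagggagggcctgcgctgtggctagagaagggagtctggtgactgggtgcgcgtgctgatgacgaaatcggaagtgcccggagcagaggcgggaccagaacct
PTPRM: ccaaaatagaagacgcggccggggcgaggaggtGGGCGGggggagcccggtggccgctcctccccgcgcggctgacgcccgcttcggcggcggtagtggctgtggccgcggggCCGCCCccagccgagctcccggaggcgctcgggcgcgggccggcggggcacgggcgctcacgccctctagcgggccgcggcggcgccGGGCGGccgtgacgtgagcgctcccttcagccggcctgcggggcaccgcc
These lie at chr18:60372776-60373025 (MC4R, minus strand), chr18:43277491-43277740 (SYT4, minus strand), chr18:65750002-65750251 (CDH7, plus strand), chr18:52339947-52340196 (DCC, plus strand), chr18:47930873-47931122 (SMAD2, minus strand), chr18:50878868-50879117 (ME2, plus strand), chr18:63422477-63422726 (VPS4B, minus strand) and chr18:7567066-7567315 (PTPRM, plus strand). GC made up 45.6% of the MC4R and CDH7 windows, 52.8% of SYT4 and 56.0% of DCC, against 78.4% of SMAD2, 72.4% of ME2, 66.4% of VPS4B and 81.6% of PTPRM. The median over 35116 RefSeq promoters was 58%. The GC box, which Sp1-type factors bind, was found in 42.6% of those promoters. It occurred 3 times each in SMAD2, ME2 and PTPRM, once in VPS4B, and in none of MC4R, SYT4, CDH7 and DCC. The 8 windows were picked to span the contrast, so no link between GC box and change is read from them. The windows of SMAD7, BCL2, MBD1, CXXC1 and SS18 also lacked the GC box, with start changes of 0.04, 0.10, 0.04, 0.08 and 0.15. That of CDH2 held 1 GC box, with a change of 0.37. The CCAAT box, which NF-Y binds, was found in 32.0% of all promoters and occurred 2 times each in MC4R and ME2, once each in SMAD2 and VPS4B, and in none of SYT4, CDH7, DCC and PTPRM. The AP-1 letters TGANTCA, found in 6.57% of promoters, were in none of the 8 windows. Both strands were searched, and overlapping matches, as in ME2, were counted separately.

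The block held more of the peaks in CRAMP1-KO than in WT. Its peaks numbered 2141, 2191 and 2521 in CRAMP1-KO and 2320, 1841 and 1616 in WT. These counts overlapped between genotypes, and the deepest WT library had more peaks in the block than 2 of the CRAMP1-KO libraries. As a share of all peaks the block took 1.60%, 1.57% and 1.60% in CRAMP1-KO, against 1.17%, 1.21% and 1.22% in WT. All 3 CRAMP1-KO libraries lay above all 3 WT libraries. The means were 1.59% ± 0.0144 in CRAMP1-KO and 1.20% ± 0.0286 in WT (SD, n = 3 each), a ratio of 1.33. The short arm below 15 Mb moved the other way, at 0.837% ± 0.0206 in CRAMP1-KO and 0.950% ± 0.0738 in WT (SD, n = 3 each), without overlap. Peaks in the block per peak on the short arm numbered 1.86, 1.89 and 1.95 in CRAMP1-KO and 1.13, 1.37 and 1.31 in WT. Covered bases gave the same picture, with 1.43%, 1.41% and 1.43% of all covered bases in CRAMP1-KO and 1.10%, 1.11% and 1.10% in WT.

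Sites open in every library were stronger in CRAMP1-KO over most of the block. Of the 3390 members, 1225 (36.1%) had a peak in all 6 libraries, and the following pileup values concern these alone. Their median relative pileup was 1.03, 1.0 and 1.02 in CRAMP1-KO and 0.784, 0.793 and 0.792 in WT. The block thus sat at the middle of each CRAMP1-KO library and below the middle of each WT library. The difference of the means of the library medians was 0.37 on the log2 scale. Over single members the median change was 0.33, with an interquartile range of 0.14 to 0.55, and 1056 (86.2%) were higher in CRAMP1-KO by their means. Over all 92505 shared regions the median change was -0.07 and 41.3% were higher. On the short arm it was -0.13 over 740 shared regions, of which 264 (35.7%) were higher. The library medians there overlapped, at 1.03, 0.968 and 1.0 in CRAMP1-KO and 1.05, 1.0 and 1.02 in WT. The difference of their means was -0.03 on the log2 scale.

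limma called 579 members (47.3%) higher in CRAMP1-KO, beside 9.36% of all shared regions, and 25 (2.04%) lower, beside 15.5%. All 3 CRAMP1-KO libraries exceeded all 3 WT libraries at 697 members (56.9%), beside 14.4% of all shared regions. The reverse held at 46 members (3.76%), beside 23.7%. Nothing is read from these counts, since the block was chosen on this contrast. On the short arm 68 regions (9.19%) were called higher and 147 (19.9%) lower.

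**Figure D1:**
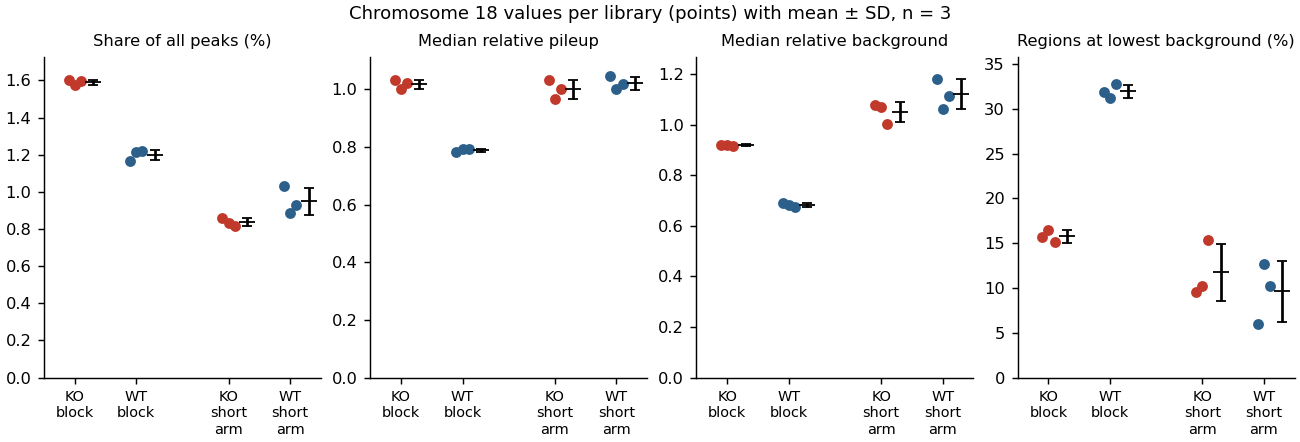
Values per library on chromosome 18, for the block and for the short arm below 15 Mb: share of all peaks (%), median relative pileup and median relative background over shared regions (both without unit), and the share of shared regions at the lowest background (%). Points are CRAMP1-KO (red) and WT (blue) libraries, with mean ± SD (n = 3) beside them. In the block the genotypes are apart in all 4 panels, for example 1.59% against 1.20% of the peaks.

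The local background around the peaks was higher in the block as well. The relative background of the shared members was 0.920, 0.922 and 0.915 in CRAMP1-KO and 0.690, 0.683 and 0.673 in WT. The means were 0.919 ± 0.00349 in CRAMP1-KO and 0.682 ± 0.00844 in WT (SD, n = 3 each). Each library has a lowest background, its genome-wide rate, below which MACS3 does not go. At that level stood 15.7%, 16.5% and 15.1% of the shared members in CRAMP1-KO, against 31.9%, 31.3% and 32.7% in WT. Genome-wide these shares were 16.6%, 17.2% and 16.9% in CRAMP1-KO and 17.6%, 19.6% and 19.8% in WT. Among the 783 members above the lowest background in all libraries, the median background change was 0.41 on the log2 scale, a ratio of 1.33, and the median pileup change was 0.27. Fold enrichment over that background changed by -0.12 on the log2 scale at these members, against -0.08 at the 69905 such regions genome-wide. On the short arm the 607 such regions changed by -0.08 in background and -0.14 in pileup. At the 150 members at the lowest background in all libraries, the pileup change was 0.42, against 0.09 at the 10929 such regions genome-wide. The median background and the median pileup of the shared members were thus both higher in CRAMP1-KO, but their changes differed in size. At the lowest background a change in background cannot show. The part of the background in the pileup change was not tested, and DNA copy number was not measured by these libraries.

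The shift ran along nearly the whole block. In 52 of 53 bins of 1 Mb the share of peaks was higher in CRAMP1-KO, with a median change of 0.57 on the log2 scale and a range from -0.03 to 1.83. limma called 45 of these bins higher, beside 18.1% of all 2828 bins tested, and 0 lower, beside 6.75%. Nothing is read from these counts, since the block was chosen on this contrast. On the short arm 0 of 15 bins were called higher and 6 lower. In windows of 5 Mb, without the omitted 2 Mb, the median pileup change ranged from 0.23 at 20 to 25 Mb to 0.50 at 35 to 40 Mb. These 11 windows ranked 1 to 28 among 588 windows of the genome with at least 20 shared regions, whose median was -0.04.

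**Figure D2:**
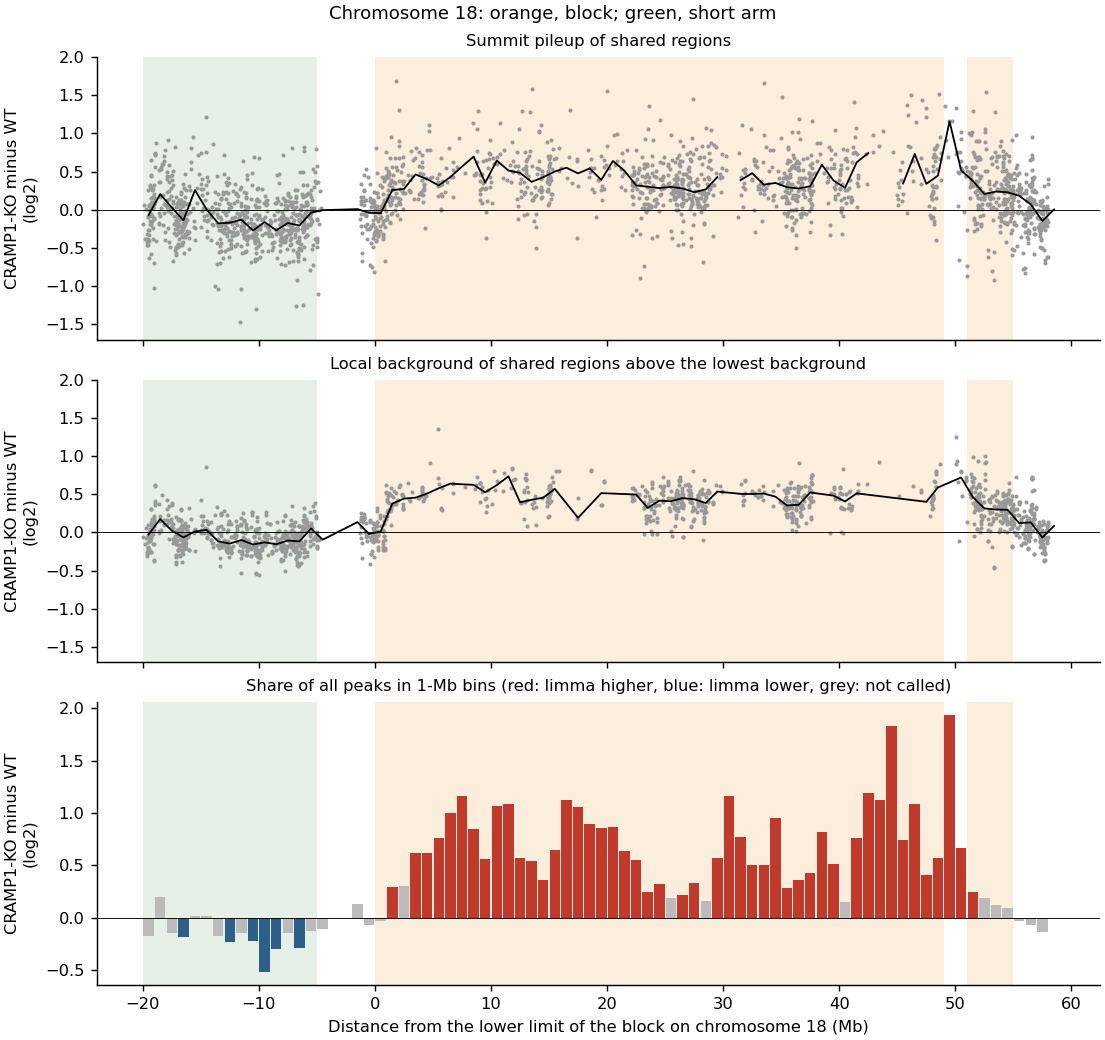
Change along chromosome 18 (CRAMP1-KO minus WT, log2) against distance from the lower limit of the block (Mb). Top, pileup of each shared region; middle, local background of shared regions above the lowest background; black lines are medians per 1 Mb. Bottom, change in the share of peaks per 1-Mb bin. Orange marks the block and green the short arm. The upper black line (pileup) runs between -0.27 and 0.26 on the short arm, with most of its points below 0, is at -0.04 in the first Mb of the block, and comes down to 0.18, 0.07 and -0.14 beyond the upper limit. Over the members from 2 to 49 Mb above the lower limit the pileup median is 0.36.

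The lower edge was sharp and lay inside the chosen limit. At 19 to 20 Mb the bin held 57, 61 and 74 peaks in CRAMP1-KO and 92, 71 and 62 in WT. At 20 to 21 Mb, already in the block, it held 70, 74 and 86 in CRAMP1-KO and 109, 77 and 77 in WT. The 55 shared members of that first Mb had a median pileup change of -0.04, the same as the 54 shared regions from 18 to 20 Mb outside. In steps of 0.25 Mb the median was -0.12 at 20.5 to 20.75 Mb, 0.13 at 20.75 to 21 Mb and 0.29 at 21 to 21.25 Mb. Background went along, at -0.02, 0.10 and 0.34 in the same steps. From 21 to 22 Mb the median pileup change was 0.26 over 46 members. From 22 to 69 Mb it was 0.36 over 910 members, of which 824 were positive. The change thus set in between 20.75 and 21.25 Mb, and the members just inside 20 Mb resembled the regions just outside it.

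The upper edge was gradual. From 71 to 75 Mb the median pileup change was 0.25 over 214 members, and 171 of these were positive. Just outside the limit, from 75 to 76 Mb, it was 0.18 over 40 regions, then 0.07 over 67 regions from 76 to 77 Mb and -0.14 over 60 regions beyond 77 Mb. Background above the lowest level took the same course, at 0.32, 0.12, 0.13 and -0.06 in these 4 segments. The descent was uneven in steps of 0.25 Mb, with -0.20 at 75.75 to 76 Mb, 0.26 at 76.5 to 76.75 Mb and values below 0 in every step from 77 Mb on. The share of peaks faded earlier than the pileup. Its change was 0.24 at 71 to 72 Mb, 0.18 at 72 to 73 Mb, 0.12 at 73 to 74 Mb and 0.09 at 74 to 75 Mb, and then -0.03, -0.07 and -0.13 in the 3 bins above the block. The bins from 71 to 75 Mb hold more peaks than most of the block. Some dense bins far from the edges changed as little, with 0.19 at 45 to 46, 0.16 at 48 to 49 and 0.15 at 60 to 61 Mb. Others changed more, with 0.36 at 56 to 57 Mb. Peak density and nearness to the edge cannot be told apart here. The omitted 2 Mb from 69 to 71 Mb went further than their surroundings, with a median pileup change of 0.56 over 25 shared regions. Their 2 bins changed by 1.93 and 0.66 in share of peaks.

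Strong and weak members differed in the size of the change. Shared regions of the genome were split into 4 strength classes of equal size by mean pileup over all 6 libraries, at relative pileups of 0.548, 0.990 and 1.93. From the weakest to the strongest class, the median change of the members was 0.28, 0.43, 0.37 and 0.23 on the log2 scale, over 307, 371, 319 and 228 members. The smallest pileup change was thus in the strongest class and the largest in the second. Background did not follow this order, with median changes of 0.06, 0.30, 0.44 and 0.41, members at the lowest background included. Only regions with a peak in all 6 libraries enter these classes. Weak members without a peak in some library are left out, and what this does to the weakest class was not tested. All shared regions also differed by class, at -0.02, 0.02, -0.04 and -0.15. Relative to these, the members stood 0.30, 0.41, 0.41 and 0.38 higher, so that the strongest class lay nearly as far above its genome-wide counterpart as the middle ones. The share of members higher in CRAMP1-KO by their means went up with strength, at 77.5%, 86.0%, 90.6% and 92.1% in the 4 classes. Among all shared regions this share was 47.5%, 51.8%, 44.1% and 21.9%. limma called 30.9%, 51.8%, 60.5% and 43.4% of the members higher, beside 9.09%, 13.6%, 11.3% and 3.41% of all shared regions in these classes.

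**Figure D3:**
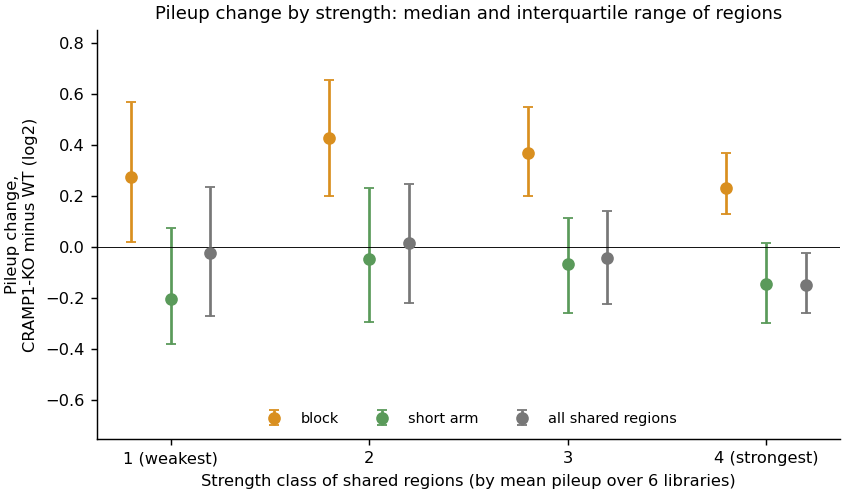
Pileup change (CRAMP1-KO minus WT, log2) by strength class, with the median (point) and interquartile range (bar) of the regions in the block (orange), on the short arm (green) and over all shared regions (grey). The block lies above the other sets in every class, with medians from 0.23 to 0.43.

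Sparse stretches of the block changed more than dense ones. Across 53 bins, the log2 mean number of peaks per library and the change in share of peaks had a Pearson r of -0.88 and a Spearman rho of -0.90. For the median pileup change the values were -0.77 and -0.82 over the 50 bins with at least 3 shared regions. Neighbouring bins share their libraries, and in sparse bins a fixed number of added peaks is a larger fraction, so these correlations only describe. The same relation over the rest of the genome is not given here, so it is not shown to be particular to the block. Some sparse 5-Mb windows elsewhere also rose, as at 110 to 115 Mb of chromosome 8 (0.39 over 58 shared regions). Another was 25 to 30 Mb of chromosome 5 (0.37 over 52). Others fell, as at 20 to 25 Mb of chromosome 19 (-0.16 over 25) and 80 to 85 Mb of chromosome 13 (-0.51 over 23). The latter lies in a run from 70 to 115 Mb where every window fell, also the dense last one (-0.43 over 271). These windows are examples, and sparse windows that rose or fell were not counted. The 18 bins with the fewest peaks had a median change in share of 1.03 and a pileup change of 0.54. The 18 bins with the most peaks had 0.24 and 0.28. The bin with the largest change in share, at 64 to 65 Mb, held 12, 14 and 14 peaks in CRAMP1-KO and 6, 3 and 3 in WT. The next were 62 to 63, 27 to 28, 50 to 51 and 63 to 64 Mb, with changes of 1.19, 1.16, 1.16 and 1.12. All 5 held few peaks, between 7 and 16 in each CRAMP1-KO library and 3 to 8 in each WT library. The smallest changes were at 20 to 21 (-0.03), 74 to 75 (0.09), 73 to 74 (0.12), 60 to 61 (0.15) and 48 to 49 Mb (0.16), all with over 40 peaks in every library.

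Peaks present in one genotype only were mostly those of CRAMP1-KO. A peak in all 3 CRAMP1-KO libraries and in no WT library occurred at 117 members (3.45%), beside 0.767% of all merged regions. The reverse occurred at 14 members (0.413%), beside 1.14%. Since the members were chosen on this contrast, nothing is read from these counts. On the short arm the numbers were 11 (0.440%) for CRAMP1-KO and 40 (1.60%) for WT. Of all such regions in the genome, the block held 6.15% of those of CRAMP1-KO and 0.496% of those of WT, while it holds 1.37% of all merged regions. Presence in any CRAMP1-KO library and no WT library was found at 896 members (26.4%), and presence in any WT library and no CRAMP1-KO library at 423 (12.5%). Genome-wide these shares were 12.6% and 25.9%. The genotype-specific peaks were weak: the 117 had a median relative pileup of 0.339 and a median width of 386 bp. They made up 11.4% of the 404 members in the 18 bins with the fewest peaks, 5.28% of 777 in the middle 17 bins and 1.36% of 2209 in the 18 bins with the most. Without WT replicate 1, the library with the most peaks, the count for CRAMP1-KO was 206 in place of 117, and 2 WT libraries had to lack a peak in place of 3.

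**Figure D4:**
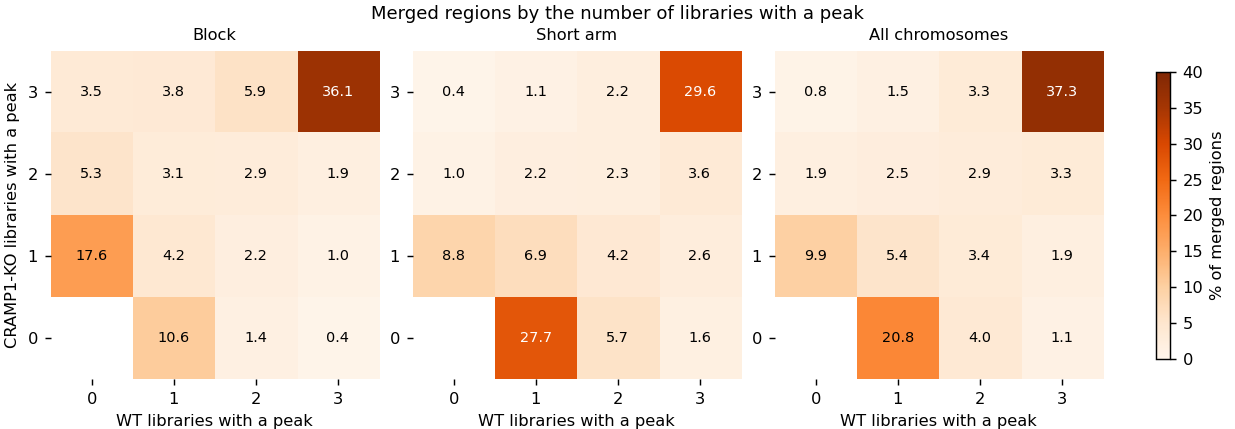
Share of merged regions (%) by the number of CRAMP1-KO libraries (vertical) and WT libraries (horizontal) with a peak, for the block, the short arm and all chromosomes. Regions in all 3 CRAMP1-KO and no WT libraries are 3.5% in the block and 0.8% overall; regions in 1 WT library alone are 10.6% in the block and 20.8% overall.

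The CRAMP1-KO-only member with the highest median −log10 q lay at chr18:64163211-64163548, with relative pileups of 0.902, 0.952 and 1.02. The next, at chr18:64771930-64772195, had 0.836, 0.742 and 0.844. Both lie in the sparse bin at 64 to 65 Mb. The others named were chr18:62633850-62634234, chr18:26764481-26764928 and chr18:36546911-36547261, with 0.508 to 0.771. All 5 were outside the gene windows examined. The leading WT-only member, chr18:67910442-67910637, had 0.567, 0.391 and 0.642 in WT. The other 4 were chr18:20150542-20150880, chr18:41367585-41367946, chr18:45929475-45929813 and chr18:45559929-45560259, with 0.245 to 0.563. The one below 21 Mb falls in the first Mb of the block, where no shift was seen.

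Single members called by limma went in both directions. The largest rise was at chr18:21778911-21779860, with relative pileups of 0.738, 0.645 and 0.583 in CRAMP1-KO and 0.196, 0.207 and 0.208 in WT, a log2 change of 1.68. At chr18:33513867-33514308 they were 1.33, 1.47 and 1.41 in CRAMP1-KO and 0.433, 0.437 and 0.547 in WT, a change of 1.58. At both sites all 3 CRAMP1-KO libraries lay above all 3 WT libraries, which picking the largest rises makes likely. The others of the 5 largest were chr18:53505712-53506342 (1.66), chr18:40026206-40026633 (1.55) and chr18:72610994-72612104 (1.55). Local background changed by 0.07, 0.58, 1.0, -0.01 and 0.92 at these sites in the order given. The largest fall was at chr18:73336566-73337460, with 0.574, 0.903 and 0.656 in CRAMP1-KO and 1.16, 1.37 and 1.43 in WT, a change of -0.92. The others were chr18:42801356-42801683 (-0.89), chr18:73182275-73183266 (-0.80), chr18:43146454-43147574 (-0.74) and chr18:48242274-48243846 (-0.69). Background changed by -0.47 to -0.02 at these 5. The value at chr18:42801356-42801683 is that of members at the lowest background in all libraries, where a change in background cannot show. At the others the background was not higher in CRAMP1-KO.

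The 5 strongest members changed little. The strongest, at chr18:74171167-74172636 in the window of the zinc finger gene ZNF516, had relative pileups of 10.5, 10.2 and 8.80 in CRAMP1-KO and 8.87, 10.6 and 10.7 in WT, a log2 change of -0.03. The genotypes overlapped there. Of the others, 2 lay in the window of MBP, which encodes myelin basic protein, at chr18:74812762-74814376 (0.21) and chr18:74779225-74780135 (0.18). The remaining ones were chr18:72162852-72164409 (0.05) and chr18:73119869-73121517 (0.22). All 5 lie between 72 and 75 Mb, and limma called none of them.

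Gene windows, taken from gene limits written by hand for hg19 with 5 kb on each side, were examined at 35 genes or clusters of the block. They held 169 different shared members, of which 160 were higher in CRAMP1-KO by their means, 87 were called higher and 0 lower. The share called higher in the windows was 51.5%, beside 47.3% of the members of the whole block and 9.36% of all shared regions, and the counts by gene list are read against these. A shared region lay within 1 kb of the start in 27 of the windows. All 27 start regions had a positive change, with a median of 0.20 on the log2 scale. limma called 7 of them higher (CDH2, CDH20, CDH7, SETBP1, SYT4, DCC and MC4R) and 0 lower. The 10 short-arm starts all lay in the strongest strength class, as did 17 of the 27 block starts. In that class 21.9% of all shared regions were higher in CRAMP1-KO by their means, with a median change of -0.15. At the short-arm starts 0 changes were positive, the median was -0.31, and 6 were called lower, beside 15.5% of all shared regions. Scaled to the lowest background, 5 of these 6 (SMCHD1, PTPRM, RAB12, ANKRD12 and VAPA) were no longer called, and that of PIEZO2 was. The starts used for CELF4 and PTPN2 lay 80.2 and 43.4 kb from the position that the spacing of RefSeq starts gives. Without CELF4 the block had 26 starts, all positive, with a median of 0.19 and 7 called.

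**Figure D5:**
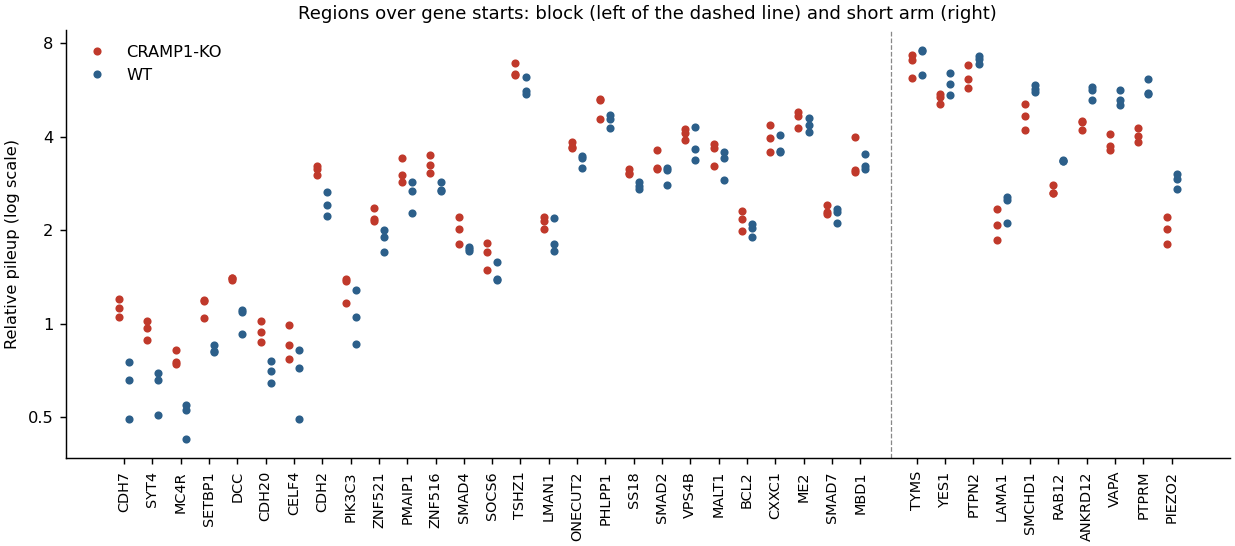
Relative pileup (log scale) in the region over each gene start, for the 3 CRAMP1-KO (red) and 3 WT (blue) libraries, ordered by change within the block and within the short arm. Starts with the largest changes in the block, on the left, lie near or below a relative pileup of 1, and strong starts such as ME2 at 4.15 to 4.80 overlap between genotypes.

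Among the cadherins, calcium-dependent adhesion proteins, all 3 starts with a shared region were called higher. The start of CDH2 (N-cadherin), at chr18:25755260-25758518, had relative pileups of 3.15, 3.23 and 3.02 in CRAMP1-KO and 2.22, 2.40 and 2.66 in WT, a change of 0.37. The call was lost when scaled to the lowest background. CDH7 had 1.20, 1.05 and 1.12 in CRAMP1-KO and 0.753, 0.494 and 0.660 in WT (0.84), the largest change of the 27 starts. CDH20, another type II cadherin, had 1.02, 0.871 and 0.938 in CRAMP1-KO and 0.701, 0.759 and 0.642 in WT (0.43), a call that was lost without any one of CRAMP1-KO replicates 1 and 3 and WT replicate 3. CDH19 held no shared region, and its window had 2, 2 and 2 peaks in CRAMP1-KO and 1, 0 and 0 in WT. Inside CDH2 the change was uneven. The regions at chr18:25674982-25675362 and chr18:25692074-25692401 changed by -0.0047 and 0.01, while chr18:25655204-25656058 changed by 0.68.

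The desmosomal cadherin cluster (DSC and DSG genes), whose products join epithelial cells, held 12 shared members, all higher in CRAMP1-KO by their means, and 9 were called. Their median relative pileup was 1.61, 2.06 and 1.97 in CRAMP1-KO and 1.32, 1.33 and 1.33 in WT. Changes ranged from 0.12 to 1.29. The largest was at chr18:28881073-28881594, with 0.836, 0.839 and 0.906 in CRAMP1-KO and 0.454, 0.299 and 0.321 in WT. All CRAMP1-KO libraries lay above all WT libraries there, which picking the largest change makes likely.

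The clade B serpin cluster (SERPINB genes, most of them protease inhibitors) had the highest share of called members among the lists. All 12 of its shared members were higher by their means, 11 were called, and the median change was 0.74. The window held 28, 29 and 35 peaks in CRAMP1-KO and 30, 21 and 14 in WT. The median relative pileup of its shared members was 0.861, 0.976 and 0.958 in CRAMP1-KO and 0.593, 0.575 and 0.613 in WT. The largest change was 1.42 at chr18:61256000-61256776, with 0.672, 0.645 and 0.854 in CRAMP1-KO and 0.268, 0.241 and 0.302 in WT. Its strongest member, at chr18:61637188-61638581, changed by 0.32, with 4.62, 4.94 and 4.15 in CRAMP1-KO and 3.39, 3.83 and 3.77 in WT.

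The TGF-β genes and the chromatin genes changed least at their starts. SMAD2 had 3.15, 3.61 and 3.17 in CRAMP1-KO and 2.80, 3.13 and 3.17 in WT (0.12). SMAD4, the common partner of the receptor-regulated SMADs, had 1.80, 2.02 and 2.21 in CRAMP1-KO and 1.76, 1.71 and 1.74 in WT (0.21). SMAD7, the inhibitory member, had 2.41, 2.26 and 2.28 in CRAMP1-KO and 2.11, 2.29 and 2.34 in WT (0.04). None of these starts was called, and the genotypes overlapped at SMAD2 and SMAD7. Of the 10 shared members in their windows 4 were called higher, 3 of them at SMAD7. MBD1, which binds methylated DNA, changed by 0.04, CXXC1, which binds unmethylated CpG sites, by 0.08, and SS18, a subunit of BAF remodelling complexes, by 0.15, and none was called.

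In the survival list, BCL2, which blocks apoptosis, had a start value of 2.16, 1.98 and 2.30 in CRAMP1-KO and 1.90, 2.09 and 2.04 in WT (0.10). The genotypes overlapped there. PMAIP1, a BH3-only protein that opposes BCL2 relatives, had 2.85, 3.42 and 3.01 in CRAMP1-KO and 2.86, 2.28 and 2.68 in WT (0.25). MALT1, a protease of NF-κB signalling, changed by 0.12 and PHLPP1, a phosphatase of AKT, by 0.16. None of the 4 starts was called, while 9 of the 18 shared members in the 5 windows were. Of these 9, 2 lay in the window of TNFRSF11A (the receptor RANK), which had no shared region at its start, and 2 in that of BCL2, at chr18:60822344-60823199 (0.39) and chr18:60905201-60906246 (0.38).

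Transcription factor genes gave 5 starts, 1 called. SETBP1, a DNA-binding partner of the SET protein, had 1.18, 1.19 and 1.04 in CRAMP1-KO and 0.856, 0.816 and 0.811 in WT (0.46). ZNF521, ONECUT2, TSHZ1 and ZNF516 changed by 0.26, 0.16, 0.17 and 0.25, each with all CRAMP1-KO libraries above all WT libraries. In the SETBP1 window 12 of 13 shared members were higher by their means and 8 were called, and 2 further members were present in CRAMP1-KO only. TCF4, an E protein, had no shared region at the start used and 8 shared members, all higher by their means, of which 1 was called.

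Genes known mainly from the nervous system had 3 of 4 starts called. SYT4 had 0.885, 1.02 and 0.969 in CRAMP1-KO and 0.691, 0.506 and 0.660 in WT (0.64). MC4R had 0.754, 0.742 and 0.823 in CRAMP1-KO and 0.546, 0.425 and 0.528 in WT (0.64). The background at these 2 starts changed by 0.05 and -0.02. The value at MC4R is that of members at the lowest background in all libraries, where a change in background cannot show. DCC had 1.38, 1.40 and 1.41 in CRAMP1-KO and 1.09, 1.10 and 0.925 in WT (0.43), all 5 of its shared members were called higher, and 3 members were present in CRAMP1-KO only. In the window used for CELF4, an RNA-binding protein, whose start was off the RefSeq spacing, all 27 shared members were higher by their means and 18 were called. MBP differed from this, with 12 of 17 shared members higher by their means, 2 called, and a median change of 0.08. It lies next to the upper limit of the block.

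Among 6 genes of general cell upkeep, 5 had a start region and none was called. ME2 had 4.28, 4.66 and 4.80 in CRAMP1-KO and 4.15, 4.37 and 4.58 in WT (0.07). VPS4B had 4.11, 4.24 and 3.91 in CRAMP1-KO and 3.36, 3.66 and 4.30 in WT (0.12). The genotypes overlapped at both. LMAN1, a cargo receptor of the secretory pathway, changed by 0.16, SOCS6, a suppressor of cytokine signalling, by 0.20 and PIK3C3, a lipid kinase of autophagy, by 0.31. No peak was listed in the window used for GALNT1, but its start lay 73.6 kb from the position that RefSeq spacing gives, so nothing is read from it.

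Strong starts changed less than weak ones. All shared regions also had a lower median change in the strongest class (-0.15) than in the next (-0.04) and the second-weakest (0.02). Of the 27 starts, 17 were in the strongest class of shared regions, with a median change of 0.15 and 1 call. The next class held 4, with 0.26 and 1 call, and the one below it held 6, with 0.55 and 5 calls, or 5, with 0.64 and 5 calls, without CELF4. The median change in local background was 0.39, 0.41 and 0.41 in the 3 classes. Among the 6 starts of the second-weakest class it ranged widely, from -0.02 at MC4R, with the value of the lowest background, to 0.92 at CDH7. Over the 24 starts with a RefSeq promoter, log2 mean relative pileup and change had a Pearson r of -0.83 and a Spearman rho of -0.77. GC content of the 250 upstream bases and change had -0.60 and -0.44. These points share libraries, and strength and change come from the same pileups. The GC-rich windows printed for SMAD2, ME2 and VPS4B belong to the strong class, and those of MC4R, SYT4 and CDH7 to the second-weakest. On the short arm the GC-rich start of PTPRM had 4.28, 4.03 and 3.85 in CRAMP1-KO and 5.49, 6.11 and 5.53 in WT, a change of -0.49. VAPA, a tether of the endoplasmic reticulum, and PIEZO2, a mechanosensitive channel, changed by -0.48 and -0.53, both called lower; the calls of PTPRM and VAPA were lost when scaled to the lowest background.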

How the data were processed

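Chromatin accessibility was measured by ATAC-seq in 3 CRAMP1-KO and 3 WT U2OS libraries. The submitters' processing notes name bcl2fastq 2.20.0, cutadapt 3.4, BWA 0.7.17-r1188, hg19 and MACS3. MACS3 settings, duplicate handling and any offset of cut sites were not given in the sources used here. Each library has 1 list of peaks, deposited by the authors. Its deposited score per peak, its deposited fold enrichment of the summit over local background and its deposited −log10 p and −log10 q values are those of MACS3, per the submitters' processing notes and the file format; the largest q was 0.05. These values served to describe, filter and rank peaks within a list.

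Pileup and background at each summit were solved from fold enrichment, taken as a ratio with 1 added to both terms, and the Poisson −log10 p. All pileups came out whole within 0.01. Peaks overlapping by 1 bp were merged. Log2 pileups of regions shared by all 6 libraries were scaled to each library's median and fitted with limma 3.58.1 in R 4.3.3 (trend, two-sided, Benjamini-Hochberg over all shared regions, threshold 0.05). Shares of peaks in 1-Mb bins averaging 5 or more peaks were fitted likewise, with a pseudocount of 0.5 peaks. The fits were also run on simulated data, with changes placed at randomly drawn regions and bins. That setting holds no regional shift, so it does not test the calls in the block. Python 3.11.15 with scipy 1.17.1, pandas 2.3.3, numpy 2.4.6 and matplotlib 3.10.9 served for the rest.

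The members and gene lists were chosen with earlier results of these data known. All genes of the lists were examined whatever their values. Regions were named as the 5 called with the largest change in each direction, the 5 strongest, and the 5 genotype-only members with the highest median −log10 q in each direction; bins as the 5 with the largest and the 5 with the smallest change, and those near the limits. Regions discussed inside gene clusters were chosen after their values were seen. No hg19 genome or annotation was used here, so exons and introns were not assigned. Gene limits and starts were written by hand. The spacing of the starts was checked against RefSeq promoters of GRCh38.p14: of 39 compared, 36 lay within 1 kb, and those of GALNT1, CELF4 and PTPN2 did not. Of the 27 block starts with a shared region, those of ZNF521 and TSHZ1 were not compared.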

Additional observations from a re-analysis of the deposited data

How the results depend on the processing

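No result for the block as a whole turned its direction under any alternative. The block was chosen for its direction in these same libraries, so this was likely from the start. At −log10 q of at least 5 the share of peaks changed by 0.33 (0.41 as reported, log2), the background by 0.47 (0.43) and the weakest class of members by 0.45 (0.33). For the weakest class, values here are differences of the means of library medians. The change by strength class given above is a median over single members. At −log10 q of at least 10 the share changed by 0.30, the ratio of block to short arm by 0.39 (0.59), the pileup by 0.41 (0.37) and the weakest class of members by 0.46, with 8 WT-only members (14) and 14 called lower (25). With lists of equal length, share and background changed by 0.35 and 0.45. With limits of 25 to 70 Mb they changed by 0.51 and 0.46 and the weakest class of members by 0.40, with 6 WT-only members and 9 called lower. Scaled to the lowest background, 349 members were called higher (579) and 8 lower. With a mean pileup of at least 20 the background changed by 0.45. With bins of 2 Mb, 24 of 26 were called higher.

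Leaving out each library in turn gave 129 to 206 CRAMP1-KO-only members (117 as reported), 17 to 40 WT-only members, 498 to 565 members called higher, 16 to 27 called lower, a change of 0.31 to 0.41 in the weakest class of members and of 0.40 to 0.44 in background. With 2 libraries in a genotype, fewer had to agree. WT-only members numbered 23 without CRAMP1-KO replicate 2, 35 without CRAMP1-KO replicate 3 or WT replicate 2, and 40 without WT replicate 3. CRAMP1-KO-only members numbered 190 without CRAMP1-KO replicate 1, 189 without replicate 2 and 206 without WT replicate 1. Members called lower numbered 16 without WT replicate 2.

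Samples share only a replicate number: correlations of same-numbered libraries were 0.06, 0.06 and -0.09 for pileups and -0.03, -0.07 and -0.03 for bins. With a replicate block, 573 members were called higher and 24 lower, and 46 bins higher and 0 lower. The strongest member changed by -0.03 as reported, by 0.000812 at −log10 q of at least 10 and by -0.11 to 0.0497 as libraries were left out in turn, and was above 0 without CRAMP1-KO replicate 3, WT replicate 2 or WT replicate 3. The MBD1 start ranged from -0.0850 to 0.11, below 0 without CRAMP1-KO replicate 2, and the TYMS start from -0.14 to 0.0196, above 0 without CRAMP1-KO replicate 1. Scaled to the lowest background, the starts of CDH2, CDH20, SETBP1, DCC, SMCHD1, PTPRM, RAB12, ANKRD12 and VAPA kept their direction and were no longer called. DCC was also not called without WT replicate 3, ANKRD12 without CRAMP1-KO replicate 1 or WT replicate 2 or 3, and SMCHD1 without any one of these or CRAMP1-KO replicate 3. Over 17 alternatives the call of SMCHD1 was lost in 7, of ANKRD12 in 5, of CDH20 in 4 and of DCC and RAB12 in 2 each. Starts not called as reported were called higher in 8 (PMAIP1), 7 (ZNF516), 6 (ZNF521), 4 (PIK3C3) and 2 (CELF4) of them. The causes were not tested. Scaling without chromosome 18 was chosen after seeing the data.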
